A study of Mus musculus with 12 samples.

Results

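The RNAs of 10 core transcription factors of the cardiomyocyte were followed in whole mouse hearts with and without cardiomyocyte CYB5R3. They were Gata4, Gata6, Nkx2-5, Tbx5, Tbx20, Mef2a, Mef2c, Mef2d, Hand2, and Srf, taken by gene symbol from a list of 53700 Ensembl genes, and all 10 were found and carried enough reads to be among the 17847 genes tested. The comparison asks whether loss of CYB5R3, a flavoprotein that passes electrons from NADH to heme and quinone acceptors, was accompanied by a change in the RNA of the factors that run the cardiac program. Both groups were male mice heterozygous for Myh6-CreERT2, a tamoxifen-activated Cre driven by a cardiomyocyte promoter. The 6 ac-WT mice carried wild-type Cyb5r3 alleles (CYB5R3wt/wt) and the 6 ac-CYB5R3-KO mice carried floxed alleles (CYB5R3fl/fl), so the other cells of the heart kept the gene in both groups. All 12 mice were given tamoxifen at 33 mg/kg/d for 5 days from 10 to 13 weeks of age, and hearts were taken 5 days later. RNA came from 30 to 50 mg of frozen heart powder of each mouse, and a whole-heart measurement cannot tell fewer cells of a type from less RNA per cell.

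These factors work as a network. GATA4 and GATA6 are zinc finger proteins, NKX2-5 is a homeobox protein, TBX5 and TBX20 are T-box proteins, HAND2 is a basic helix-loop-helix protein, and the MEF2 proteins and SRF share a MADS-box that binds AT-rich DNA. They bind close to each other in the enhancers of genes for contraction, conduction, and natriuretic peptides, contact each other on DNA, and regulate one another in the embryo. In the adult heart much of their control lies in partners. Class II histone deacetylases hold MEF2 silent until calcium signaling moves them out of the nucleus, and SRF chooses between contractile and growth-response genes according to whether myocardin, a myocardin-related factor, or a ternary complex factor sits beside it. The RNA level of a factor is therefore only a part of its activity.

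Libraries held between 43393183 and 53754284 counts on genes. Values are given as CPM, read counts relative to library size, after TMM scaling, which corrects for libraries where a few genes take many reads. Cyb5r3 itself, the check of the genotype, had a lowest, median, and highest level of 81.9, 121, and 185 CPM in ac-WT and 42.0, 52.7, and 67.4 CPM in ac-CYB5R3-KO hearts (log2 fold change -1.22 ± 0.19, SE, adjusted p = 0.045 by the edgeR quasi-likelihood test with Benjamini-Hochberg adjustment). ac-WT mice 2 and 3 stood apart from the other hearts. Their TMM factors were 0.570 and 0.723, against 0.988 to 1.22 elsewhere, and mitochondrial transcripts took 35.3% and 34.8% of their counts. The summed level of 10 cardiomyocyte markers was 53851 and 42386 CPM in these mice, where the remaining ac-WT hearts had 22963 to 26797 CPM and ac-CYB5R3-KO hearts 17149 to 28057 CPM. The summed level of 7 fibroblast markers was 1428 and 1462 CPM, against 4170 to 7048 CPM and 3682 to 5677 CPM. The cartilage markers Col2a1, Col11a1, Comp, and Acan were higher in the knockout, each at an unadjusted p under 0.05. The summed cartilage and airway list ran from 3.72 to 40.5 CPM in ac-WT and from 58.6 to 128 CPM in knockout hearts. Most of that sum was Comp and Col11a1, with knockout medians of 77.7 and 25.4 CPM. Col2a1 and Acan reached at most 0.958 and 0.654 CPM in any heart. The airway markers Scgb1a1 and Sftpc had at most 1 and 2 counts in a library and were not tested. Red blood cell markers were higher for 2 of 3. Of 6 endothelial, 6 macrophage, and 7 fibroblast markers, 0 passed, beside 14.6% of all genes. Of 10 cardiomyocyte markers 4 were lower, and of 6 smooth muscle and pericyte markers 2 were lower and 1 was higher. Without ac-WT mice 2 and 3, 2 macrophage and 2 fibroblast markers were lower. The macrophage markers summed to 146 and 145 CPM in those mice and to 215 to 493 CPM in the other ac-WT hearts. No marker was at 0 in every library. The part of these differences in the results was not tested, and for many genes values are also given without ac-WT mice 2 and 3.

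None of the 10 factors passed a threshold in the edgeR comparison. At an adjusted p under 0.05 the count was 0 of 10, where 0.101% of all genes tested passed. At an unadjusted p under 0.05 it was also 0 of 10, where 14.6% of all genes passed (9.73% lower and 4.91% higher in the knockout). DESeq2 and limma-voom likewise placed 0 of 10 factors under 0.05, adjusted or unadjusted. The groups overlapped for every factor, while 1.55% of all genes had groups that did not overlap. Log2 fold changes ran from -0.25 for Tbx5 to 0.43 for Tbx20, with a median of -0.05 beside -0.01 over all genes tested, and 5 factors had a positive and 5 a negative value.

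**Figure D1:**
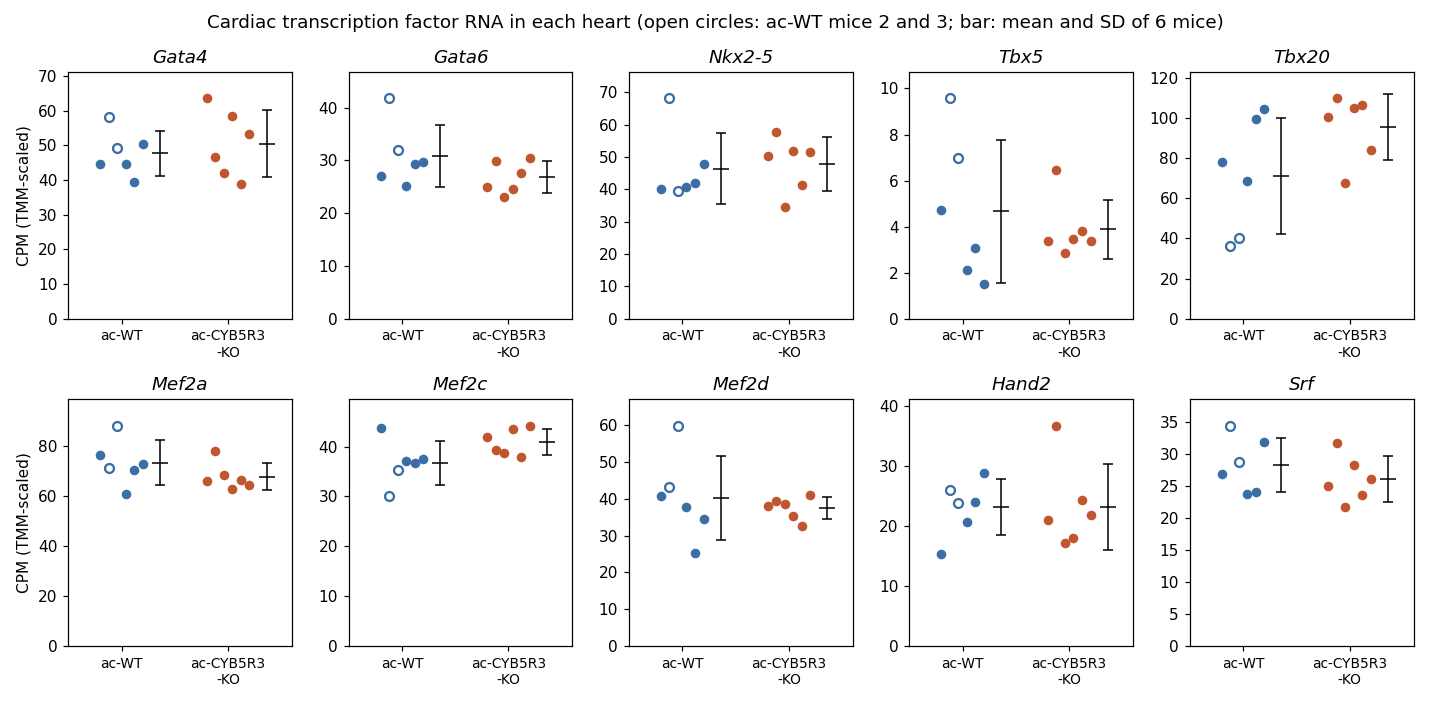
RNA level of each of the 10 factors in every heart, as TMM-scaled CPM on axes that start at 0. Blue points are the 6 ac-WT and orange points the 6 ac-CYB5R3-KO mice, open circles are ac-WT mice 2 and 3, and black bars give the mean and SD of 6 mice. The groups overlap in all 10 panels, and the 2 lowest points for Tbx20 are ac-WT mice 2 and 3 at 36.1 and 40.2 CPM.

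A p above the threshold does not show equal levels, so the 95% intervals of the fold change give what the data allow. For 8 factors the interval lay within a 1.5-fold change in either direction. The exceptions were the T-box factors. The interval of Tbx20 ran from 0.929-fold to 1.94-fold, and that of Tbx5 from 0.473-fold to 1.5-fold, which is the only interval of the 10 that held a change of 2-fold. These intervals cover the spread between mice under TMM scaling and not the choice of scaling. Scaling to total counts shifted the median over all genes to a log2 value of 0.26, and all 10 factors had positive values, from 0.11 for Gata6 to 0.57 for Tbx20. Their median under total counts was 0.25, which is -0.01 relative to the median of all genes. Directions given here for Gata6, Tbx5, Mef2a, Mef2d, and Srf thus hold under TMM scaling and reverse under total counts.

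**Figure D2:**
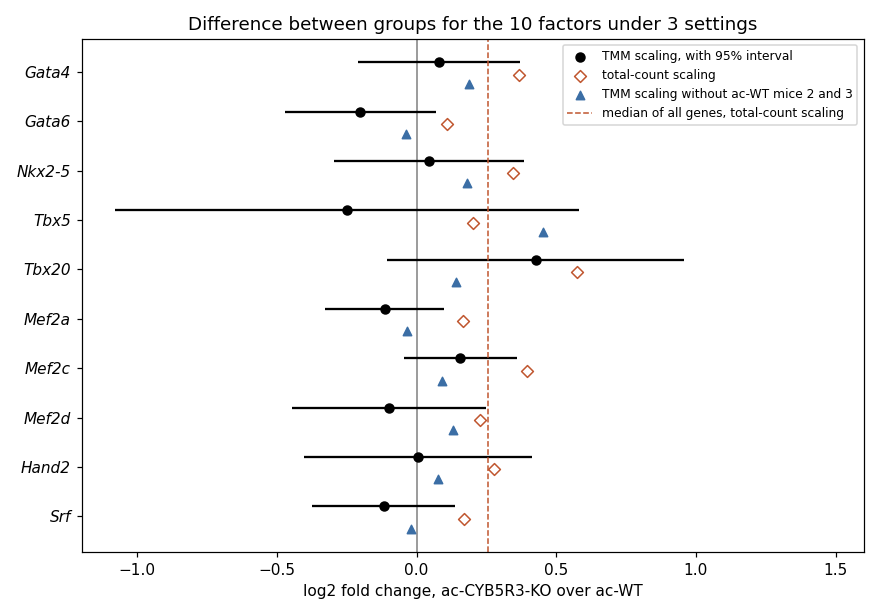
Log2 fold change of each factor, ac-CYB5R3-KO over ac-WT, with n = 6 mice per group. Black points with lines are TMM-scaled estimates with 95% intervals, open diamonds use total counts, and blue triangles leave out ac-WT mice 2 and 3. All 10 intervals include 0, and the diamonds spread around the dashed line at 0.26, the median of all genes under total counts.

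Levels differed widely between the factors. They were set side by side per kilobase of exon, with exon lengths from the GENCODE annotation of NCBIM37, since longer RNAs give more reads. Nkx2-5 was highest at 30.9 ± 6.16 CPM per kb (SD, n = 12 hearts) and was above Tbx20 (18.5 ± 5.73) in 12 of 12 hearts. Tbx20 was above Gata4 (12.6 ± 2.04) in 10 of 12 hearts, the exceptions being those of ac-WT mice 2 and 3. Gata4 and Mef2a (11.1 ± 1.196) could not be ordered, as each was higher in 6 of 12 hearts. Mef2a was above Hand2 (10.4 ± 2.57) in 8 hearts, and Hand2 was above Gata6 (9.01 ± 1.54) in 10. Gata6 was above Srf (6.64 ± 0.96) in all 12, while Srf and Mef2d (6.50 ± 1.36) again split 6 to 6. Mef2d was above Mef2c (5.25 ± 0.55) in 11 hearts. Tbx5 was lowest by far at 1.09 ± 0.58 CPM per kb and was below Mef2c in all 12 hearts. Its counts, from 80 to 375 reads per library, were also the smallest of the 10, and the other factors had at least 742 reads in every library.

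**Figure D3:**
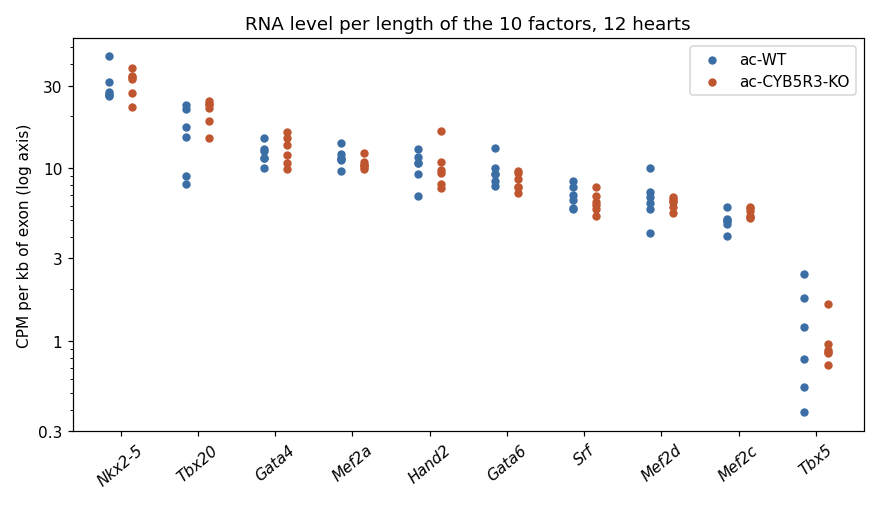
Level of each factor per kilobase of exon in 12 hearts, on a log axis in CPM per kb, ordered by the mean. Blue points are ac-WT and orange points ac-CYB5R3-KO mice. Nkx2-5 lies highest, Tbx5 lies lowest at a mean of 1.09 CPM per kb, and Gata4 with Mef2a and Srf with Mef2d overlap.

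The GATA factors come first in the hierarchy as pioneer proteins that can bind closed chromatin. Gata4 (chr14:63817759-63890529, minus strand, NCBIM37) had a lowest, median, and highest value of 39.3, 46.9, and 58.2 CPM in ac-WT and 38.8, 50.05, and 63.5 CPM in ac-CYB5R3-KO hearts. Both the lowest and the highest heart belonged to the knockout group. The log2 fold change was 0.08 ± 0.14 (SE, adjusted p = 0.801 by edgeR), and 0.19 without ac-WT mice 2 and 3. Under total counts Gata4 was the factor of the 10 with an unadjusted edgeR p under 0.05, with a log2 fold change of 0.37 and an adjusted p = 0.410. Gata6 (chr18:11052508-11085633, plus strand) had 25.1, 29.5, and 41.8 CPM in ac-WT and 23.01, 26.3, and 30.5 CPM in ac-CYB5R3-KO hearts. The highest Gata6 value was that of ac-WT mouse 2, and 3 of the 6 knockout hearts lay below the lowest ac-WT heart. The difference was -0.20 ± 0.13 on the log2 scale (adjusted p = 0.469 by edgeR) and -0.04 without ac-WT mice 2 and 3. The first exon of Gata6 overlaps 1010001N08Rik, an RNA on the opposite strand, which was not analysed here, and since the strand setting of the counts is not given in the sources used here, reads of both could share the count.

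NKX2-5 is the homeobox factor that binds enhancers together with GATA4 and TBX5, and it keeps the conduction system in order after birth. Nkx2-5 (chr17:26975609-26978510, minus strand) had a lowest, median, and highest level of 39.6, 41.3, and 68.2 CPM in ac-WT and 34.5, 50.9, and 57.8 CPM in ac-CYB5R3-KO hearts. The 5 lower ac-WT hearts were packed between 39.6 and 47.8 CPM, and ac-WT mouse 2 was the highest of all 12. The mean was 46.4 ± 11.1 CPM (SD, n = 6) in ac-WT and 47.9 ± 8.40 CPM in ac-CYB5R3-KO hearts, with a two-sided exact permutation test over mice giving p = 0.825. The log2 fold change was 0.05 ± 0.16 (SE), and 0.18 without ac-WT mice 2 and 3.

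The values of the T-box pair depended most on ac-WT mice 2 and 3. TBX5 activates atrial, conduction, and calcium-handling genes, and mutations in it cause a heart and limb malformation syndrome. Tbx5 (chr5:120284672-120335227, plus strand) had 1.52, 3.91, and 9.57 CPM as lowest, median, and highest value in ac-WT and 2.86, 3.42, and 6.45 CPM in ac-CYB5R3-KO hearts. The ac-WT values bracketed all knockout values, with mice 2 and 3 at the top (9.57 and 6.97 CPM) and mouse 6 at the bottom. With all mice the log2 fold change was -0.25 ± 0.39 (adjusted p = 0.782 by edgeR), and without ac-WT mice 2 and 3 it was 0.45 (adjusted p = 0.784 by edgeR), so the direction turned.

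TBX20 is needed in adult cardiomyocytes for contractile and ion-transport genes. Tbx20 (chr9:24527648-24578746, minus strand) had 36.1, 73.1, and 104 CPM in ac-WT and 67.4, 103, and 110 CPM in ac-CYB5R3-KO hearts. ac-WT mice 2 and 3, at 36.1 and 40.2 CPM, were the only hearts below the knockout range, and the other 4 ac-WT hearts overlapped the knockout range. The log2 fold change of 0.43 ± 0.25 was the largest of the 10 factors (adjusted p = 0.441 by edgeR, p = 0.0931 by the exact permutation test). Without the same mice it was 0.14 (adjusted p = 0.905 by edgeR). Tbx20 was thus lowest in the hearts with the highest cardiomyocyte marker sums and the lowest TMM factors, and the part of either in its level was not tested.

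Of the MEF2 factors, which link calcium and stress signals to muscle genes, MEF2C acts earliest in the embryo, and MEF2A and MEF2D predominate in the adult heart. Mef2a (chr7:74376049-74517744, minus strand) had 60.8, 71.9, and 88.0 CPM in ac-WT and 62.8, 66.2, and 77.9 CPM in ac-CYB5R3-KO hearts. All 6 knockout hearts lay inside the ac-WT range, and the fold change, -0.11 ± 0.10 on the log2 scale (adjusted p = 0.605 by edgeR), came with an interval of 0.797-fold to 1.07-fold. Next to Mef2c it had the lowest coefficient of variation of the 10 factors in each group, 12.1% in ac-WT and 7.91% in ac-CYB5R3-KO hearts.

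Mef2c (chr13:83643033-83806684, plus strand) had 30.1, 36.9, and 43.7 CPM in ac-WT and 38.0, 40.6, and 44.2 CPM in ac-CYB5R3-KO hearts. Every knockout heart was above 5 of the 6 ac-WT hearts, the exception being ac-WT mouse 1 at 43.7 CPM. Its log2 fold change was 0.16 ± 0.09 (adjusted p = 0.458 by edgeR), and the exact permutation test of the means gave p = 0.0628. Without ac-WT mouse 1 the unadjusted edgeR p was under 0.05 (log2 fold change 0.21, adjusted p = 0.249), and without ac-WT mice 2 and 3 the log2 fold change was 0.09.

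Mef2d (chr3:87946294-87976008, plus strand) covered a wider range in ac-WT. Its values were 25.2, 39.2, and 59.9 CPM in ac-WT and 32.7, 38.3, and 40.9 CPM in ac-CYB5R3-KO hearts, and all 6 knockout hearts fell inside the ac-WT range. The coefficient of variation was 28.6% in ac-WT and 7.93% in ac-CYB5R3-KO hearts. Between the groups Mef2d had a log2 fold change of -0.10 ± 0.16 (adjusted p = 0.791 by edgeR), and it was 0.06 without ac-WT mouse 3, the highest heart. The last exon overlaps 1700113A16Rik on the opposite strand, which was not analysed here, so reads of both could share the Mef2d count.

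HAND2 acts in the right ventricle, in cardiac neural crest, and in the epicardium of the embryo. Hand2 (chr8:59799780-59803314, plus strand) had 15.4, 23.9, and 28.9 CPM in ac-WT and 17.2, 21.4, and 36.7 CPM in ac-CYB5R3-KO hearts. ac-CYB5R3-KO mouse 2 was highest, and the other 5 knockout hearts lay between 17.2 and 24.3 CPM. Between the groups the log2 fold change was 0.01 ± 0.19 (adjusted p = 0.993 by edgeR), the value nearest to 0 of the 10, and -0.17 without that mouse.

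SRF binds the CArG box, a short AT-rich DNA element with CC at the start and GG at the end, and the Srf gene itself carries such elements. Srf (chr17:46683788-46693111, minus strand, NCBIM37) had 23.8, 27.8, and 34.4 CPM in ac-WT and 21.7, 25.5, and 31.8 CPM in ac-CYB5R3-KO hearts. The ranges overlapped over most of their length, with a log2 fold change of -0.12 ± 0.12 (adjusted p = 0.656 by edgeR) and of -0.02 without ac-WT mice 2 and 3. The gene lies within the span of Gm16736, an RNA on the opposite strand that shares no exon with it and was not analysed here. Cul9, which starts just beyond the end of Srf on the same strand, had a log2 fold change of -0.22 ± 0.15 (adjusted p = 0.523 by edgeR).

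The bases before the start of Srf are shown with those of genes that SRF or MEF2 factors are known to bind and whose levels are given further on, so that the element behind the word target can be seen. They come from the RefSeq promoter table (GRCm38.p6), which held 7 of the 10 factors, and each is the 120 bases before a listed start, 5′ to 3′ on the strand of the gene. Capitals mark every match to the CArG box, or for Xirp2 to the MEF2 box, searched on both strands. The genes were picked after their motifs and values were seen.
Srf: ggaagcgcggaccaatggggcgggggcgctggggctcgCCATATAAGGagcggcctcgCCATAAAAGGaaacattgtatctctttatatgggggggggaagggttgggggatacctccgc
Hopx: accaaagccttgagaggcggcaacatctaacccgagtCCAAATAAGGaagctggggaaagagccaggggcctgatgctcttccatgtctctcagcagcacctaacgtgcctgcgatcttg
Fhl2: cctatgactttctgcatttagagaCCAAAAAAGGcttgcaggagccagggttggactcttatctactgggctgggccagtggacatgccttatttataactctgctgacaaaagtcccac
Myl3: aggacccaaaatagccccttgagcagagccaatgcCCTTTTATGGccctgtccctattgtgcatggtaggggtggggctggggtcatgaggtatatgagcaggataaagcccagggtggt
Actc1: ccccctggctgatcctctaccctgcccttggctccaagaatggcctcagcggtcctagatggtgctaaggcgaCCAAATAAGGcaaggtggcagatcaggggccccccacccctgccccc
Acta1: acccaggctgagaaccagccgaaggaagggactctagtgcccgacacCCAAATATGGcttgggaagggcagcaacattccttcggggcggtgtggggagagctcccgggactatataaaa
Xirp2: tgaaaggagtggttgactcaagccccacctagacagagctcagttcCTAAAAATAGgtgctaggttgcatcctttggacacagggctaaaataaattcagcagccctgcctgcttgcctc
The Srf stretch (chr17:46556163-46556282, minus strand) held 2 CArG boxes, which began 82 and 62 bases before the start. Single CArG boxes began 83 bases before the start of Hopx (chr5:77115124-77115243, minus strand), 96 before Fhl2 (chr1:43196762-43196881, minus strand), 85 before Myl3 (chr9:110763558-110763677, plus strand), 47 before Actc1 (chr2:114052876-114052995, minus strand), and 73 before Acta1 (chr8:123894776-123894895, minus strand). Another Fhl2 start, whose stretch (chr1:43163962-43164081, minus strand) is not shown, had a CArG box that began 31 bases before it. The MEF2 box of Xirp2 (chr2:67445882-67446001, plus strand) began 74 bases before the start. The Fhl2 stretch shown also held a MEF2 box, 31 bases before the start, which is not marked. Among all 32851 windows of the table, each of 250 bases before to 50 after a start, 1.63% held a CArG box and 3.19% a MEF2 box. Srf was the only factor of the 7 with a CArG box in its windows, and Mef2a the only one with a MEF2 box. A match describes letters and does not show binding in these hearts.

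The factors varied together from mouse to mouse only in part. After each group's mean was taken away, 45 pairs of factors were compared over the 12 hearts, and 28 had a positive r (median 0.22). Without ac-WT mice 2 and 3, 35 of the pairs had a positive r (median 0.27). The strongest pair was Nkx2-5 with Srf. It gave Pearson r = 0.84 (two-sided permutation test, p = 0.00050, adjusted over the 45 pairs p = 0.0225) and Spearman rho = 0.73 (permutation p = 0.00860, adjusted p = 0.193), so the rank correlation did not pass after adjustment. Without the 2 hearts farthest from the median of Nkx2-5 r was 0.75, and without ac-WT mice 2 and 3 it was 0.84. No other pair had an adjusted p under 0.05. The most negative pair, Tbx20 with Mef2d, had r = -0.74 (permutation p = 0.0047, adjusted p = 0.0754) and rho = -0.69 (permutation p = 0.0175, adjusted p = 0.197). Its r was -0.64 without the 2 farthest hearts and -0.51 without ac-WT mice 2 and 3. Tbx5 with Tbx20 had r = -0.64 (permutation p = 0.0254, adjusted p = 0.163) and rho = -0.36 (permutation p = 0.255, adjusted p = 0.543), but r = 0.16 without ac-WT mice 2 and 3, so that relation rested on those hearts.

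**Figure D4:**
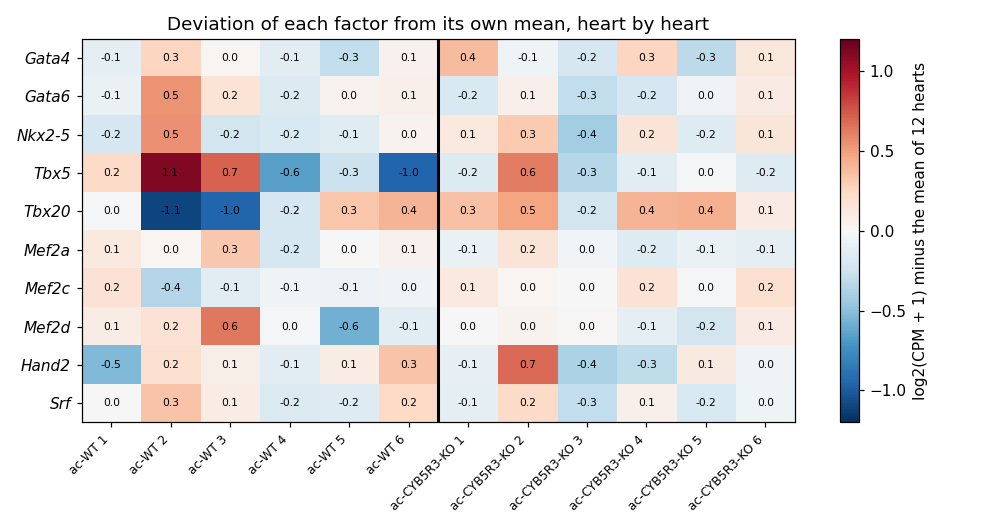
Log2(CPM + 1) of each factor in each heart minus its own mean over 12 hearts, red above and blue below the mean, with the value printed in each cell. ac-WT mice are left and ac-CYB5R3-KO mice right of the black line. In ac-WT mice 2 and 3 the cells of Tbx5 lie above and those of Tbx20 below the mean.

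ac-WT mouse 2 lay outside the range of the other 5 ac-WT mice for 7 of the 10 factors. ac-WT mice 2 and 3 were both above the other 4 ac-WT hearts for 3 factors and both below for 2. The median coefficient of variation of the 10 factors was 19.6% in ac-WT and 15.4% in ac-CYB5R3-KO hearts, beside 24.9% and 15.7% for all genes tested.

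For each factor the 2 genes with the most alike pattern over 12 hearts, again with group means taken away, were found among 17846 others. Those closest were Prkacb, a catalytic subunit of protein kinase A, for Tbx20 (r = 0.99), Gcdh, a lysine-degrading dehydrogenase, for Tbx5 (r = 0.96, after an unnamed gene, ENSMUSG00000096146, at 0.97), and Myo18a, an unconventional myosin, for Mef2d (r = 0.96). Inpp5a, an inositol phosphatase, was closest to Srf (r = 0.96), Rab1b, a small GTPase of the early secretory path, to Nkx2-5 (r = 0.96), and Slc4a4, a bicarbonate transporter, to Mef2a (r = 0.93). Sorcs2 led for Hand2 (r = 0.92), Eaf1 for Mef2c (r = 0.91), Cdk18 for Gata4 (r = 0.91), and ENSMUSG00000097547, followed by Mlf1 (r = 0.95), for Gata6 (r = 0.97). Spearman rho over the 20 genes ran from 0.77 to 0.98, and r without the 2 farthest hearts from 0.66 to 0.97. No p is given, since each was picked as the highest of many. None of the 20 had an adjusted p under 0.05 between the groups, and 4 had an unadjusted p under 0.05, beside 14.6% of all genes.

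Around the 10 factors stand other factors of the heart, of which 14 of 20 listed were tested. At an unadjusted p under 0.05, 1 was lower and 1 higher (14.3% in all, beside 14.6% of all genes), and the median of the list was 0.03. Tbx3, the T-box repressor that keeps conduction cells from turning into working muscle, had 4.55, 6.91, and 9.61 CPM in ac-WT and 3.20, 3.64, and 4.36 CPM in ac-CYB5R3-KO hearts. The groups did not overlap, and the log2 fold change was -0.92 ± 0.20 (adjusted p = 0.141 by edgeR, exact permutation p = 0.00216) and -0.63 without ac-WT mice 2 and 3. Tead1, which shares targets with SRF and the MEF2 factors and is the effector of Hippo signaling, had 40.7, 43.8, and 54.4 CPM in ac-WT and 49.2, 59.9, and 85.7 CPM in ac-CYB5R3-KO hearts (log2 fold change 0.46 ± 0.14, adjusted p = 0.193 by edgeR, exact permutation p = 0.0108). Irx5, which shapes the repolarization gradient across the ventricle wall, had a log2 fold change of 0.45 ± 0.29 (adjusted p = 0.480 by edgeR), and 0.83 without ac-WT mice 2 and 3. The values were -0.00074 ± 0.24 for Prox1 and -0.0077 ± 0.37 for Klf15. Under total counts 5 genes of this list passed 0.05 unadjusted, 4 higher and 1 lower. Over all genes 2053 of 17847 passed at that scaling, 367 of them lower. Without ac-WT mice 2 and 3 there were 4 of this list, 3 higher and 1 lower, beside 1461 of 18299 genes. Gata5 and Mef2b had too few reads to be tested, 67 and 65 over all libraries. The counts of Nkx2-6, Hand1, and Isl1 were 0 in all 12 libraries, which allows up to 3 counts, or 0.0507 to 0.105 CPM, per library by counting error alone.

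Partners and regulators of the factors form the next list. Of 20 cofactors tested, 4 were lower and 1 was higher at an unadjusted p under 0.05 (25.0% in all, beside 14.6% of all genes), the list median was -0.07, and none passed after adjustment. Under total counts the balance turned to 3 higher and 1 lower, with a median of 0.21, below the 0.26 of all genes. At that scaling 2053 of 17847 genes passed, 367 of them lower. Hopx, an atypical homeobox protein that binds SRF and keeps it off DNA, had 56.4, 81.2, and 358 CPM in ac-WT and 25.8, 32.3, and 43.2 CPM in ac-CYB5R3-KO hearts. The groups did not overlap. ac-WT mice 2 and 3 were highest at 358 and 173 CPM, and the log2 fold change moved from -2.05 ± 0.42 (adjusted p = 0.104 by edgeR, exact permutation p = 0.00216) to -1.09 without them. Fhl2, a LIM protein that binds SRF and competes with its coactivators, had 700, 824, and 1011 CPM in ac-WT and 428, 591, and 791 CPM in ac-CYB5R3-KO hearts (log2 fold change -0.50 ± 0.15, adjusted p = 0.196 by edgeR, exact permutation p = 0.00866). Hopx and Fhl2 are the cofactors shown above with a CArG box before a start. Of the other genes shown with one, Myl3 had a log2 fold change of -0.87, Srf -0.12, Actc1 0.08, and Acta1 0.12. These genes were picked after their motifs and values were seen, so the values cannot tie the box to a change.

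Rcan1, an inhibitor of calcineurin that calcineurin signaling itself induces, was the gene higher in the knockout. It had 60.5, 121, and 146 CPM in ac-WT and 128, 173, and 265 CPM in ac-CYB5R3-KO hearts (log2 fold change 0.69 ± 0.22, adjusted p = 0.211 by edgeR, exact permutation p = 0.0152). The direct coactivators of SRF gave mixed values. Myocd, which encodes the muscle coactivator of SRF, had a log2 fold change of -0.52 ± 0.22 (adjusted p = 0.286 by edgeR), but -0.16 without ac-WT mice 2 and 3. Mrtfa, the myocardin-related coactivator, had 0.01 ± 0.10 and Mrtfb 0.12 ± 0.13. Smyd1, a muscle methyltransferase downstream of MEF2C, had -0.43 ± 0.18 (adjusted p = 0.298 by edgeR), and -0.13 without the same mice. Zfpm2, the partner that restrains GATA4, had 0.07 ± 0.13, and the MEF2 repressors Hdac4 and Hdac5 had -0.20 ± 0.14 and -0.25 ± 0.14. Both were highest in ac-WT mice 2 and 3, and without those mice the values were -0.0079 for Hdac4 and -0.034 for Hdac5. Without ac-WT mice 2 and 3, where 1461 of 18299 genes passed, 3 of the 20 cofactors were left, 2 lower and 1 higher. The count was also 3 when any of ac-CYB5R3-KO mice 1, 3, or 5, or ac-WT mouse 2 or 3 alone, was left out.

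Genes known as targets of the factors in cardiomyocytes gave 8 of 26 at an unadjusted p under 0.05 (30.8%, beside 14.6% of all genes), 6 lower and 2 higher in the knockout, with a median of -0.22. None passed after adjustment, the lowest adjusted p being 0.0715 for Xirp2. Xirp2, an actin-binding repeat protein at the intercalated disc and a target of MEF2A, had 191, 230, and 420 CPM in ac-WT and 476, 622, and 856 CPM in ac-CYB5R3-KO hearts. All 6 knockout hearts were above all ac-WT hearts. Its log2 fold change was 1.25 ± 0.23 (exact permutation p = 0.00216) and 1.06 without ac-WT mice 2 and 3, while that of Mef2a was -0.11. Des, which encodes the intermediate filament desmin, also a MEF2 target, was higher by 0.60 ± 0.20 on the log2 scale (adjusted p = 0.218 by edgeR).

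The 6 targets with lower values were Tnni3, Myl2, Myl3, Myh6, Ckm, and Atp2a2. All 10 cardiomyocyte markers are also in this target list, among them Tnni3, Myl2, Myl3, and Myh6. The part of cell content in these values was not tested. Tnni3, the cardiac inhibitory troponin and a GATA4 target, had 1482, 1808, and 4805 CPM in ac-WT and 888, 1251, and 1452 CPM in ac-CYB5R3-KO hearts, with no overlap (log2 fold change -1.01 ± 0.28, adjusted p = 0.184 by edgeR). Myl2, the ventricular regulatory light chain and a MEF2 target, had a log2 fold change of -1.22 ± 0.35 (adjusted p = 0.184 by edgeR), Myl3 had -0.87 ± 0.28, Ckm, the muscle creatine kinase, had -1.16 ± 0.34, Myh6 had -0.75 ± 0.30, and Atp2a2, the calcium pump of the sarcoplasmic reticulum, had -0.64 ± 0.25. Each of these was highest in ac-WT mice 2 and 3. Without those mice the values were -0.46 for Tnni3, -0.50 for Myl2, -0.35 for Myl3, -0.53 for Ckm, -0.22 for Myh6, and -0.28 for Atp2a2. At that setting 5 of 26 genes passed, 3 lower and 2 higher, beside 1461 of 18299 over all genes. The list median was then -0.01. Under total counts the median of the list was 0.11, below the 0.26 of all genes. Other classic targets did not pass. Nppa, the natriuretic peptide gene that GATA4, NKX2-5, and TBX5 switch on together, had 0.18 ± 0.31, Nppb had -0.02 ± 0.18, Actc1 had 0.08 ± 0.21, and Tnnt2 had -0.14 ± 0.21.

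SRF targets of the cytoskeleton and the early response gave 8 of 12 at an unadjusted p under 0.05 (66.7%, beside 14.6% of all genes), with a median of -0.77, and none passed after adjustment. Of these 7 were lower, and Cnn1, a smooth muscle calponin, was higher by 1.04 ± 0.42 on the log2 scale (adjusted p = 0.272 by edgeR), and by 0.75 without ac-WT mice 2 and 3, when it did not pass. The early-response genes, which serum and stretch switch on within minutes through SRF and its ternary complex factors, made up 5 of the 7. Fosb had 1.06, 5.53, and 25.1 CPM in ac-WT and 0.882, 1.61, and 5.16 CPM in ac-CYB5R3-KO hearts, with a log2 fold change of -2.05 ± 0.69 (adjusted p = 0.220 by edgeR). Ier2 had -1.06 ± 0.34, Fos -1.29 ± 0.48, Egr1 -0.88 ± 0.40, and Junb -0.68 ± 0.27, while Egr2 had -0.19 ± 0.23 and did not pass. In all 5 the groups overlapped, with some ac-WT hearts as low as knockout hearts, and the exact permutation p ran from 0.0671 for Ier2 and Fos to 0.128 for Egr1. Without ac-WT mice 2 and 3 the values were -1.33 for Fosb, -0.61 for Ier2, -0.93 for Fos, -0.57 for Egr1, and -0.48 for Junb, and none of the 5 passed.

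Acta2, the smooth muscle actin gene, had 51.6, 98.7, and 140 CPM in ac-WT and 42.9, 51.1, and 65.3 CPM in ac-CYB5R3-KO hearts (log2 fold change -0.89 ± 0.20, adjusted p = 0.144 by edgeR, exact permutation p = 0.00866). The skeletal actin gene Acta1, whose CArG box is shown above, had 0.12 ± 0.19. Without ac-WT mice 2 and 3, where 1461 of 18299 genes passed, only Acta2 passed among the 12, with -0.78, and the median was -0.42. Under total counts, where 2053 of 17847 genes had an unadjusted p under 0.05, the list held 5, 4 lower and 1 higher. Its median was then -0.40. The count was 4 without ac-WT mouse 2, and 5 without ac-WT mouse 1 or without ac-CYB5R3-KO mouse 4 or 5. Acta2, Cnn1, and Tagln are also markers of smooth muscle, and the part of those cells was not tested. The 6 markers of smooth muscle and pericytes summed to 325 to 410 CPM in ac-WT and 271 to 365 CPM in ac-CYB5R3-KO hearts. Rgs5 was the highest of them, with medians of 233 and 195 CPM. At an unadjusted p under 0.05 Myh11 and Acta2 were lower and Cnn1 was higher, while Tagln had 0.18 ± 0.30. Myh11 had a log2 fold change of -0.93 ± 0.26 (adjusted p = 0.184 by edgeR), and -0.36 without ac-WT mice 2 and 3.

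**Figure D5:**
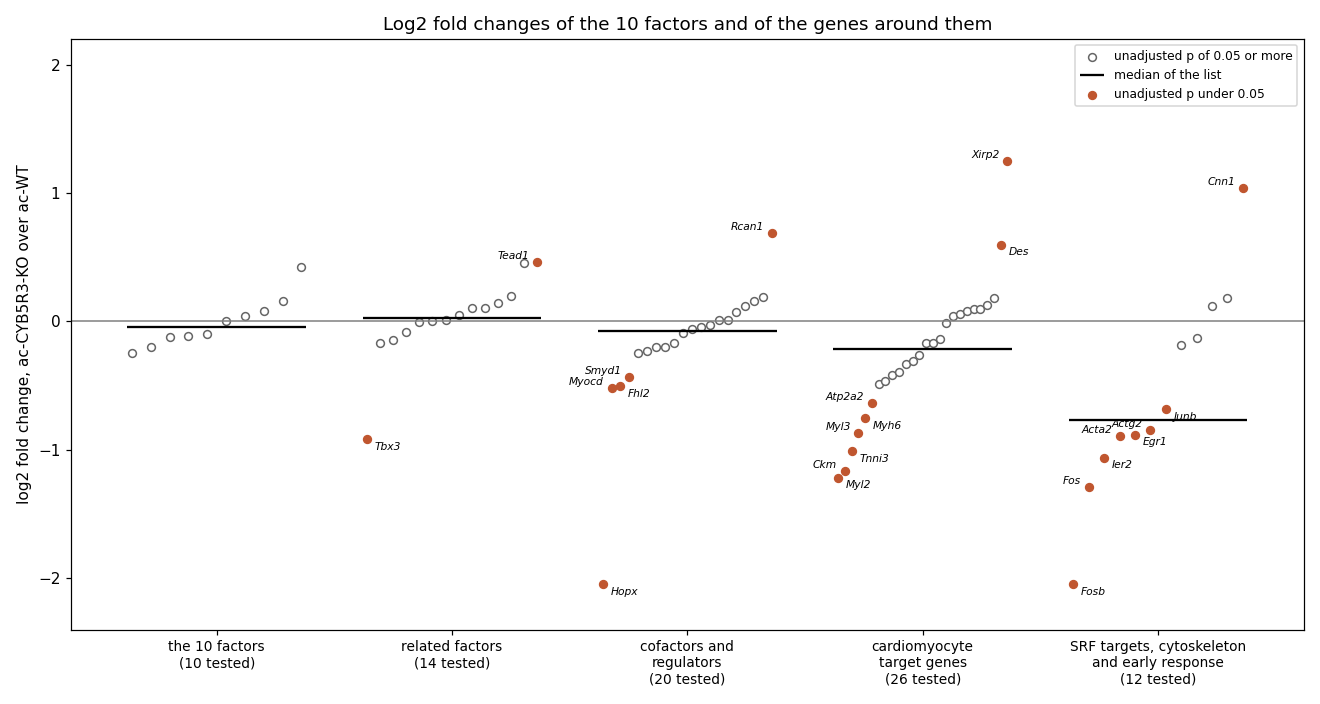
Log2 fold change, ac-CYB5R3-KO over ac-WT, of the 10 factors and of 4 lists of genes around them, sorted within each list. Filled points have an unadjusted edgeR p under 0.05 and carry their symbol, open points do not, and black lines are list medians. All 10 factors are open points, from -0.25 for Tbx5 to 0.43 for Tbx20. The SRF targets have a median of -0.77, which was -0.42 without ac-WT mice 2 and 3.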

How the data were processed

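RNA from 12 mouse hearts, 6 per group, was sequenced as 75 bp unpaired reads from total RNA with a stranded kit. The deposited values are raw counts, a whole number of reads per Ensembl gene and heart, made by the authors without normalization. The submitters' processing notes name STAR, featureCounts, and GRCm39, whereas the study's methods give mm9, so the build of the counts is unsettled, and the strand setting and annotation are not given in the sources used here. Coordinates are those of NCBIM37 (mm9), and promoter sequences those of GRCm38.p6.

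Genes were filtered by filterByExpr (minimum count 10), scaled by TMM, and compared by the quasi-likelihood F test in edgeR (two-sided, version 4.0.16, R 4.3.3), with Benjamini-Hochberg adjustment over 17847 genes and no covariate. For mean CPM an exact permutation test, two-sided, used all 924 placements of the mice, with a smallest p of 0.00216. Correlations used log2(CPM + 1) after subtraction of group means, with 100000 permutations. The factors and all gene lists were chosen with earlier results of these data known. From each list the 3 genes with the smallest p and the 3 with the highest CPM were named, with genes tied to a factor and the 2 most alike genes per factor. Of the identifiers, 57.8% had a symbol, and Hand2os1, Gata6os, Tbx5os, and Hbb-bs were not matched and not analysed here. A further listed gene is not reported here. Alternatives were DESeq2 (1.42.0), limma-voom (limma 3.58.1), total counts, upper-quartile factors, robust estimates, no filter, 10 counts in every library, removal of the 37 mitochondrial genes, the replicate number as a block, and leaving out mice. The edgeR, DESeq2, and limma-voom tests were also run on simulated counts with known changes of 2-fold or more. Smaller changes, hearts that stand apart, the permutation test, and the correlations were not part of that check. The biological coefficient of variation was 26.5%, so the spread between mice, more than the depth, set the precision, and limits from counts cover counting error only. Nothing states that a mouse gave more than 1 library.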

Additional observations from a re-analysis of the deposited data

Results flagged for a closer look

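Each factor was examined in each group of 6 mice for a heart whose gap to its nearest neighbor took up most of the range of the group, by Dixon's criterion at the 95% level. Of 20 groups, 3 held such a heart, where the criterion flags about 1 in 20 among independent, normally distributed values. The share over all genes tested was not computed, so the 3 cannot be called more than usual for these libraries. Nkx2-5 in ac-WT mouse 2 was 68.2 CPM, with the next heart at 47.8 CPM (gap over range 0.714). Tbx5 in ac-CYB5R3-KO mouse 2 was 6.45 CPM, with the next at 3.80 CPM (0.739). Hand2 in the same knockout mouse was 36.7 CPM, with the next at 24.3 CPM (0.635).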

How the results depend on the processing

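Over 22 other settings and 10 factors, 220 values in all, no factor reached an adjusted p under 0.05, the lowest being 0.240 for Tbx20 without ac-WT mouse 6. In 4 of the 220 a factor passed 0.05 unadjusted, which made the count of factors 1 of 10 in place of 0. These were Gata4 under total counts, Tbx20 with the replicate block (log2 fold change 0.51, adjusted p = 0.332 by edgeR) and without ac-WT mouse 6 (0.57, adjusted p = 0.240 by edgeR), and Mef2c without ac-WT mouse 1. Gata4, Tbx20, and Mef2c kept a positive sign in all 22, and the sign turned in 17 of the 220 values. Under total counts these were Gata6 (0.11), Tbx5 (0.20), Mef2a (0.17), Mef2d (0.23), and Srf (0.17). With limma-voom they were Tbx5 (0.067) and Hand2 (-0.015), and without ac-WT mice 2 and 3 Tbx5 (0.45) and Mef2d (0.13). When each mouse was left out in turn, Tbx5 ran from -0.46 to 0.10, Hand2 from -0.17 to 0.081, Nkx2-5 from -0.016 to 0.20, and Mef2d from -0.20 to 0.056, and the count of factors at an unadjusted p under 0.05 from 0 to 1.

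Over all genes, the count at an adjusted p under 0.05 moved from 18 to 451 by DESeq2, 2 by limma-voom, 35 without a filter, 8 under total counts, 7 without ac-WT mice 2 and 3, and between 2 and 38 when each mouse was left out. At an unadjusted p it went from 2614 to 1461 without ac-WT mice 2 and 3, and 66.4% of the 2614 were lower in ac-CYB5R3-KO hearts against 17.9% of 2053 under total counts. The causes were not tested. Mice with the same replicate number are separate animals. Across genes, the 6 same-number pairs correlated at 0.13 on average after group means were removed, and at -0.16 to 0.36 singly. The 30 other pairs correlated at -0.025 on average, and at -0.36 to 0.33 singly. These ranges overlap and do not settle whether the numbers pair mice, and the main comparison used no pairing. With the replicate block 2 genes passed after adjustment, 1 factor passed unadjusted, and Hand2 turned to -0.017. Depth limited Tbx5 most, with 80 to 375 reads per library.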

Other observations

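Windows of 250 bases before to 50 after a start were also searched on both strands for AGATAA (bound by GATA factors), AGGTGT (bound by T-box factors), and CAAGTG (bound by NKX2 factors), which 11.2%, 13.7%, and 13.6% of all windows held. Of the 7 factors with a window in the table, Hand2 held AGATAA and CAAGTG, Mef2c held AGGTGT and CAAGTG at different starts, and Nkx2-5, Tbx20, and Mef2d held none of the 5 motifs. Among the cardiomyocyte targets, 23 genes had a window. AGATAA was present for 7 of them, among them Nppb, Tnnt2, Myl2, and Ankrd1, AGGTGT for 4, CAAGTG for 2, a CArG box for 2 (Actc1 and Myl3), and a MEF2 box for 2 (Ttn and Xirp2). Of the 8 SRF targets with a window, Acta1, Vcl, and Egr2 held a CArG box. Their log2 fold changes were 0.12 ± 0.19, -0.13 ± 0.21, and -0.19 ± 0.23 (SE), and none had an unadjusted p under 0.05. Of the 7 genes of that list that were lower in the knockout, Acta2, Fos, Fosb, and Junb had a window and held no CArG box in it, which says only that these letters were not within it, and Actg2, Egr1, and Ier2 were not searched. The genes were named after their motifs were seen.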
